A study of Mus musculus with 8 samples.

Results

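The testis-specific serine kinases Tssk1, Tssk2, Tssk3, Tssk4, Tssk5 and Tssk6 were followed through mouse spermatogenesis. All probe sets whose platform annotation named only one of these 6 genes were taken, which gave 6 of 18193 named genes and 9 of 45037 probe sets other than controls. Tssk4 had 3 of them, Tssk3 had 2, and the other genes had 1 each. Total RNA of 4 germ cell stages was hybridised to 8 arrays of the type Mouse 430 2.0. Spermatogonia gave 2 groups of 2 arrays, type A and type B, and the meiotic pachytene spermatocytes and haploid round spermatids gave 2 arrays each. All cells came from mice of the BL/6-129 background, and no allele or treatment is named for any group. Each array stands for an independent germ cell preparation, per the series' design text. The sources used here give neither the age of the mice nor the purification and purity of the preparations.

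The TSSK proteins are serine/threonine kinases of the calcium/calmodulin-dependent kinase group, and their closest relatives are the kinases related to AMPK. They are known from the testis, where they act in haploid germ cells as the round spermatid condenses its nucleus and builds the flagellum. In the mouse, males that lack Tssk6, or Tssk1 together with Tssk2, are infertile. TSKS, a protein that TSSK1 and TSSK2 phosphorylate, and TSACC, a co-chaperone that activates TSSK6, belong to the same system.

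Tssk1 and Tssk2 are neighbours on mouse chromosome 16, with no other gene starting between them in the RefSeq table of GRCm38.p6. Tssk3 lies on chromosome 4, Tssk4 on 14, Tssk5 on 15 and Tssk6 on 8. RefSeq promoter windows of that build matched 5 of the 6 genes, all but Tssk5. The 250 bases before the start of 3 genes are shown in lower case, because Tssk1 and Tssk2 are the neighbouring pair and Tssk6 held the only motif match. Capitals mark the longest run that Tssk1 and Tssk2 have in common, and in Tssk6 the half-site of the cAMP response element.
Tssk1, chr16:17893953-17894202, plus strand: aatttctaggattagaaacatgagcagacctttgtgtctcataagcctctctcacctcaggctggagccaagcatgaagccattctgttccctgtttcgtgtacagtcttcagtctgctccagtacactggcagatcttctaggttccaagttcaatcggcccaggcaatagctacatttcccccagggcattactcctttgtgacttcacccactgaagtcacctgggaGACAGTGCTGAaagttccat
Tssk2, chr16:17898387-17898636, plus strand: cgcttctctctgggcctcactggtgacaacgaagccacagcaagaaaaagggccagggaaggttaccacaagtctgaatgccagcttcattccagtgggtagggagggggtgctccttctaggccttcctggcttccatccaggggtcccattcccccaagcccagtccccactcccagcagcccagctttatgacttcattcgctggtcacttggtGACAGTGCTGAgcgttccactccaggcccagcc
Tssk6, chr8:69901934-69902183, plus strand: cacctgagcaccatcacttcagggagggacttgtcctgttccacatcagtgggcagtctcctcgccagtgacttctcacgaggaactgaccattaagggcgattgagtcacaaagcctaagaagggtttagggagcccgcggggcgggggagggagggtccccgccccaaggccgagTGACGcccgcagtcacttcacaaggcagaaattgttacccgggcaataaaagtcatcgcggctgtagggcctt

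The run in common was 11 bases long, and it began 20 bases before the start in Tssk1 and 33 bases before it in Tssk2. On the same strand, the longest run in any other pair of the 5 windows was 7 or 8 bases. A local alignment of the Tssk1 and Tssk2 windows paired 109 bases, of which 75.2% were identical, and one of Tssk2 and Tssk3 paired 114 bases at 69.3%. Between opposite strands, Tssk1 with Tssk6 and Tssk3 with Tssk6 had runs of 10 bases in common. The cAMP response element, bound by factors such as CREM, was searched as TGACGTCA on both strands and was in 0 of the 5 Tssk windows, against 1.55% of 32851 RefSeq windows of the same length. Its half-site TGACG, which is contained in the full element, was in 1 of 5 Tssk windows, 73 bases before the Tssk6 start, against 17.8% of all windows. The letters TATAAA, searched on both strands, were in 0 of 5 Tssk windows and in 12.4% of all windows. These matches describe letters and do not show that a factor binds there.

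Values are MAS5 signals, an intensity on a linear scale, and as deposited their trimmed mean was the same on each array. A change is therefore relative to the rest of the array, and fewer expressing cells cannot be told apart from less RNA per cell. Median signal ran from 33.6 to 51.9 over the 8 arrays. The replicates correlated across probe sets, which are not independent, at r = 0.933 in type A, 0.900 in type B, 0.972 in pachytene cells and 0.978 in spermatids. Type B replicate 2 stood apart, with genes of later stages high on it. The 7 pachytene marker genes summed to signals of 2204 and 1910 on the type A arrays, and 3350 and 9153 on type B replicates 1 and 2. They summed to 17492 and 18405 on the pachytene arrays, and were no lower on the spermatid arrays, at 18775 and 18788. The 9 spermatid marker genes, among them the protamines and transition proteins, summed to signals of 121.8 and 100.6 on the type A arrays, 84.9 and 2017 on type B replicates 1 and 2, 3473 and 3582 on the pachytene arrays, and 33675 and 38213 on the spermatid arrays. All 9 lay above the array median in type B replicate 2 and on every later array, and 0 of 9 did so on the other 3 spermatogonial arrays. The spermatogonial markers, such as Zbtb16 and Kit, summed to signals of 4002 to 6281 on the 4 arrays of spermatogonia. Their sums were 527.1 and 607.6 in pachytene cells, and 1089 and 1058 in spermatids. Sums for 6 Sertoli cell markers were 3497 to 6223 on the 4 arrays of spermatogonia, 2224 and 2906 in pachytene cells, and 443.0 and 487.8 in spermatids. Sums for 4 Leydig cell markers were 630.9 to 1497, then 516.8 and 945.0, then 88.5 and 88.8 at the same stages. For 4 markers of peritubular and stromal cells they were 7415 to 10154, then 631.9 and 826.8, then 808.3 and 667.1, and for 5 macrophage markers 437.5 to 959.7, then 193.5 and 179.2, then 357.7 and 358.0. The Sertoli and Leydig sums were thus lower in spermatids than in pachytene cells, and the spermatogonial and macrophage sums were higher. The part of other cells in the Tssk changes was not tested.

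Tssk1, Tssk2, Tssk3, Tssk4 and Tssk6 all reached their highest signals in round spermatids, where at least 1 probe set of each stood far above every earlier array. Tssk2, which with Tssk1 phosphorylates the spermatid protein TSKS, had signals of 2.4 and 3.4 in type A, 6.7 and 97.3 in type B, 151.3 and 132.1 in pachytene cells, and 2367 and 2672 in spermatids (probe set 1449489_at). Both spermatid arrays were far above both pachytene arrays, and type B replicate 2 was nearer to the pachytene arrays than to type B replicate 1. Tssk1 had signals of 2.5 and 45.5 in type A, 55.4 and 145.6 in type B, 329.8 and 272.7 in pachytene cells, and 1726 and 2014 in spermatids (1417989_at). The 4 stages did not overlap for Tssk1, but the type A replicates lay far apart, as did those of type B.

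Tssk6, the kinase needed for chromatin condensation in mouse spermatids, had signals of 12.6 and 8.5 in type A, 6.7 and 53.0 in type B, 92.6 and 73.7 in pachytene cells, and 859.8 and 1339 in spermatids (1418956_at). Type B replicate 1 lay below both type A arrays here, and the spermatid replicates differed more than for the main probe sets of Tssk1, Tssk2, Tssk3 and Tssk4. Tssk3, another kinase of the haploid germ cell, had signals of 12.2 and 5.1 in type A, 25.5 and 37.5 in type B, 70.4 and 59.6 in pachytene cells, and 1302 and 1391 in spermatids (1418557_s_at). The suffix _s_at marks a probe set that can match several transcripts, so a share of this signal may belong to another gene. Tssk4, which in the mouse phosphorylates the outer dense fibre protein ODF2, had signals of 32.1 and 21.7 in type A, 21.9 and 29.2 in type B, 99.5 and 78.0 in pachytene cells, and 1169 and 1351 in spermatids (1432101_a_at). Type A and type B overlapped for Tssk4, and the later stages stood apart from them and from each other.

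The other probe sets of Tssk3 and Tssk4 were dim. The second Tssk3 probe set, 1432397_at, had signals of 4.5 and 11.0 in type A, 25.4 and 27.3 in type B, 23.1 and 32.9 in pachytene cells, and 51.3 and 47.5 in spermatids. Its type B and pachytene signals overlapped, unlike those of 1418557_s_at, so the 2 Tssk3 probe sets disagreed on that step. Tssk4 probe set 1438486_at had signals of 0.9 to 8.9 on the 6 arrays before the spermatid stage, and 62.4 and 68.7 in spermatids. The third Tssk4 probe set, 1443810_at, had signals of 1.6 to 17.0 on the 6 earlier arrays and 32.2 and 16.3 in spermatids, with the pachytene and spermatid arrays overlapping. Tssk5 had signals of 7.9 and 5.9 in type A, 4.7 and 3.6 in type B, 3.3 and 3.5 in pachytene cells, and 4.0 and 7.1 in spermatids (1432045_at). Tssk5 lay below the median of every array at all stages, and whether this reflects the gene or its 1 probe set was not tested.

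**Figure D1:**
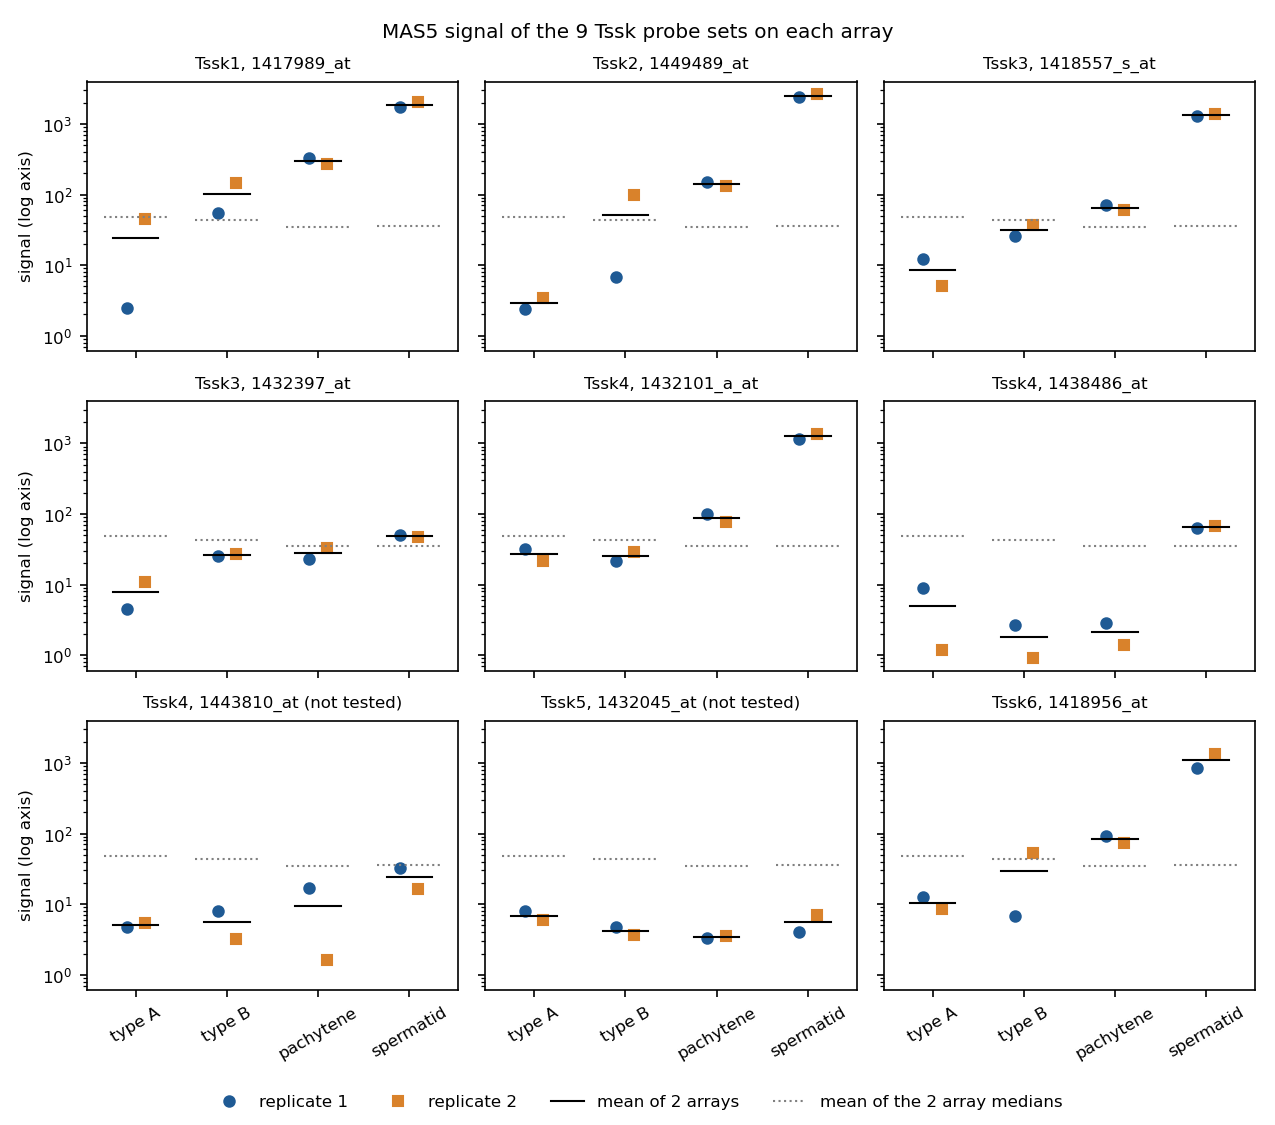
MAS5 signal (log axis) of each of the 9 Tssk probe sets in the 4 germ cell stages, with a circle for replicate 1, a square for replicate 2, a bar for their mean and a dotted line for the mean of the 2 array medians. The main probe sets of Tssk1, Tssk2, Tssk3, Tssk4 and Tssk6 sit between 859.8 and 2672 in spermatids, while Tssk5 stays between 3.3 and 7.9 on all 8 arrays.

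Probe sets whose signal exceeded the array median on 2 or more of the 8 arrays were tested, which left 28635 probe sets and 7 of the 9 Tssk ones. Tssk5 and Tssk4 probe set 1443810_at were not tested. Tssk3 1432397_at and Tssk4 1438486_at passed on the 2 spermatid arrays only, so a rise in spermatids was built into their selection. Changes are differences of log2(signal + 16), which understates the change of a low signal. They were tested with limma over all 8 arrays, and ± is the standard error of that fit, for 2 arrays against 2. Calls were made at a Benjamini-Hochberg adjusted p under 0.05 over all tested probe sets.

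On the linear signal scale, most of the signal of the 5 main Tssk probe sets appeared between pachytene spermatocytes and round spermatids. In spermatids against pachytene cells, 6 of the 9 Tssk probe sets rose, none fell, 1 did not pass and 2 were not tested, while 11.7% of all tested probe sets were called higher. The 6 are the main probe sets of 5 genes and Tssk4 1438486_at, whose rise its selection had fixed. Tssk3 1418557_s_at rose by 4.07 ± 0.24 log2 (limma adjusted p = 1.12e-04), and its mean signal was 1346 ± 62.6 in spermatids against 65.0 ± 7.64 in pachytene cells (SD, n = 2 each), or 20.7 times as much. Tssk2 rose by 4.01 ± 0.61 (adjusted p = 0.00247), with a mean signal of 2520 ± 215.6 in spermatids against 141.7 ± 13.6 in pachytene cells, or 17.8 times as much. Tssk4 1432101_a_at rose by 3.61 ± 0.23 (1.18e-04) and Tssk6 by 3.46 ± 0.48 (0.00153), with mean signals 14.2 and 13.2 times those of pachytene cells.

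Tssk1 rose least among these main probe sets, by 2.57 ± 0.56 log2 (limma adjusted p = 0.0117), and its mean signal was 1870 ± 203.9 in spermatids against 301.2 ± 40.4 in pachytene cells, or 6.21 times as much. The difference between Tssk1 and the other kinases was not tested. The Tssk1 call was lost without either pachytene array (adjusted p = 0.0522 and 0.0661 without replicate 1 and 2) or either spermatid array (0.06 and 0.0848), although the log2 change stayed between 2.44 and 2.70. The dim Tssk4 probe set 1438486_at rose by 2.17 ± 0.23 (5.1e-04), and the dim Tssk3 probe set 1432397_at read 0.58 ± 0.22 (0.0956). Those 2 dim probe sets were tested only because they were high in spermatids, so their sign adds nothing to that of the main probe sets.

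Over the whole span, in spermatids against type A spermatogonia, the main probe sets of 5 Tssk genes rose, and 21.9% of all tested probe sets were called higher. The 2 dim probe sets of Tssk3 and Tssk4 were also called, but their selection through the spermatid arrays had built in a rise, and 2 of the 9 were not tested. Tssk2 rose by 7.07 ± 0.61 log2 (limma adjusted p = 6.68e-05), Tssk3 1418557_s_at by 5.80 ± 0.24 (1.96e-05), Tssk1 by 5.80 ± 0.56 (1.02e-04), Tssk6 by 5.36 ± 0.48 (7.34e-05) and Tssk4 1432101_a_at by 4.90 ± 0.23 (1.96e-05). The dim probe sets read 1.98 ± 0.23 (2.32e-04) for Tssk4 1438486_at and 1.47 ± 0.22 (7.76e-04) for Tssk3 1432397_at. This comparison uses the same spermatid arrays as the previous one, so both sets of values are not independent. The calls of the 5 main probe sets held without any single array. Apart from Tssk1, these had passed the filter through later arrays only, which favoured a rise over type A.

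Part of the rise was already seen on the pachytene arrays, where the spermatid markers stood at 5.78% to 14.96% of their spermatid means. Whether this early Tssk signal came from pachytene cells or from other cells in the preparations was not tested. For Tssk1 the log2 change was 3.23 up to pachytene cells and 2.57 at the spermatid step, and the difference was not tested. Their order depends on the pseudocount and on type A replicate 1, at a signal of 2.5 against 45.5 in replicate 2. In pachytene cells against type A, 6 of the 9 Tssk probe sets rose and none fell, while 22% of all tested probe sets were called higher and 34.7% lower. The 6 include Tssk3 1432397_at, which lay below the median on both pachytene arrays and was tested only through the spermatid arrays. Of the main probe sets, all but Tssk1 passed the filter on no type A array, which favoured a rise. Tssk1 rose by 3.23 ± 0.56 log2 (limma adjusted p = 0.00183), Tssk2 by 3.06 ± 0.61 (0.00357), Tssk6 by 1.90 ± 0.48 (0.0103), Tssk3 1418557_s_at by 1.73 ± 0.24 (6.03e-04), Tssk4 1432101_a_at by 1.29 ± 0.23 (0.00204) and Tssk3 1432397_at by 0.89 ± 0.22 (0.0101). Tssk4 1438486_at read -0.19 ± 0.23 (0.511). The call of Tssk6 was lost without pachytene replicate 1 (0.0548), and that of Tssk3 1432397_at without type A replicate 1 (0.0593) or pachytene replicate 2 (0.0789).

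**Figure D2:**
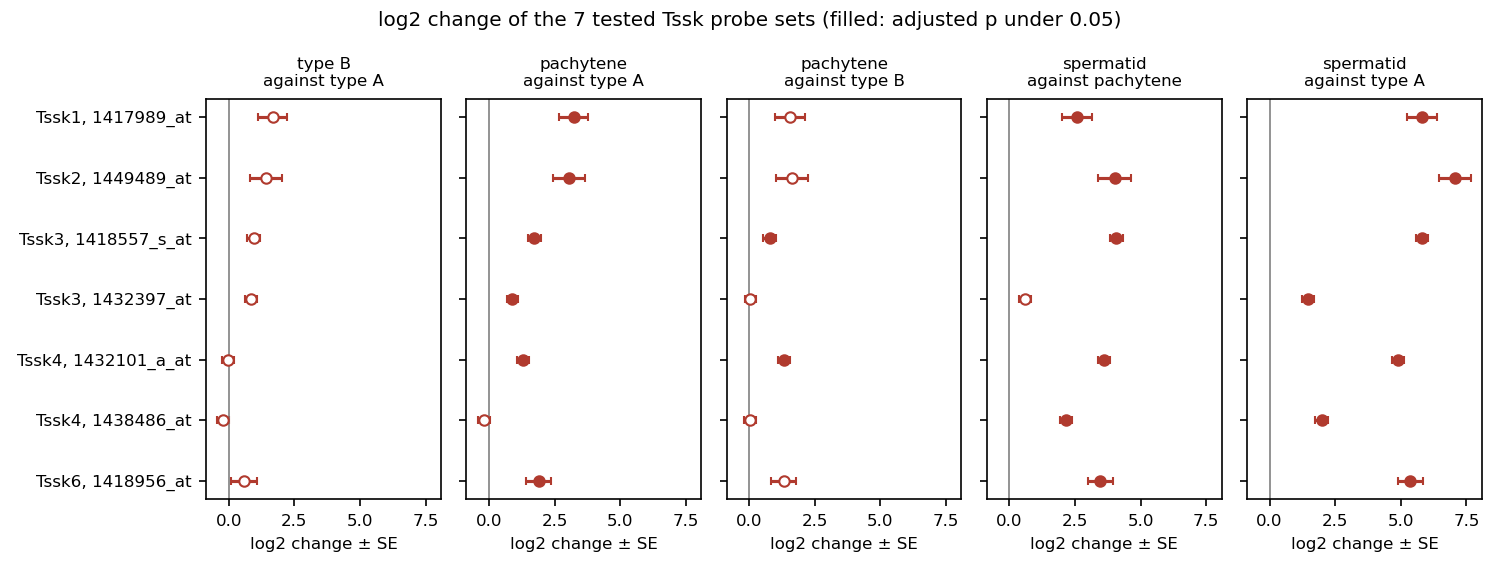
log2 change with its standard error for the 7 tested Tssk probe sets in 5 comparisons of stages, filled where the limma adjusted p was under 0.05. The changes of spermatids against pachytene cells run from 0.58 to 4.07, and no point is filled for type B against type A.

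Against type B spermatogonia the pachytene step was less clear. There, 2 of the 9 Tssk probe sets rose and none fell, and 20.3% of all tested probe sets were called higher and 29.4% lower. Both had passed the filter through pachytene and spermatid arrays only, which favoured a rise over type B. Tssk4 1432101_a_at rose by 1.33 ± 0.23 log2 (limma adjusted p = 0.00226) and Tssk3 1418557_s_at by 0.78 ± 0.24 (0.0259), and the Tssk3 call was lost without type B replicate 1 (0.112) or without pachytene replicate 1 (0.131) or 2 (0.0688). Tssk1, Tssk2 and Tssk6 read 1.56 ± 0.56, 1.63 ± 0.61 and 1.32 ± 0.48 and missed the threshold narrowly (0.0502, 0.0569 and 0.0504). Without type B replicate 2, the array on which spermatid markers were high, 5 Tssk probe sets rose, with Tssk2 at 2.79 (1.72e-04), Tssk1 at 2.15 (0.0255) and Tssk6 at 2.12 (0.0017), where 19% of all tested probe sets were called higher. Type B then consists of replicate 1 alone, which is assumed to vary like the arrays of the other stages. Fewer than in the fit of all arrays rose without type B replicate 1 or either pachytene array, where fewer of all tested probe sets were called too.

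Between type B and type A spermatogonia none of the 7 tested Tssk probe sets passed the limma test, as was true of all 28635 (0% called higher), of which 2322 had an unadjusted p under 0.05. Of the Tssk probe sets, 4 did so. Tssk1, Tssk3 1418557_s_at, Tssk3 1432397_at and Tssk2 were those 4, all with a positive change and an adjusted p = 0.614. Tssk1 read 1.67 ± 0.56 log2, Tssk2 1.42 ± 0.61, Tssk3 1418557_s_at 0.95 ± 0.24 and Tssk6 0.58 ± 0.48. Without type B replicate 1, Tssk2 passed at 2.58 (limma adjusted p = 0.00136), and 3.68% of all tested probe sets were called higher. That fit sets type B replicate 2 alone, the array with high spermatid markers, against type A, and assumes that it varies like the arrays of the other stages. Tssk6 read -0.22 when replicate 2 was omitted.

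The early signals of the kinases were set beside those of spermatid marker genes on the same arrays. As a percentage of its own spermatid mean, the pachytene mean was 16.1% for Tssk1, 7.56% for Tssk6, 7.04% for Tssk4 1432101_a_at, 5.62% for Tssk2 and 4.83% for Tssk3 1418557_s_at. For the 9 spermatid markers it ran from 5.78% for Akap4 to 14.96% for Smcp, with a median of 7.75%. Type B replicate 2 stood at 7.79% for Tssk1, 4.82% for Tssk6, 3.86% for Tssk2, 2.79% for Tssk3 and 2.32% for Tssk4, and the markers ran from 1.77% to 11.1% on it. On type B replicate 1 the markers ran from 0.0206% to 0.98%, and the kinases stood at 2.96% for Tssk1, 1.89% for Tssk3, 1.74% for Tssk4, 0.609% for Tssk6 and 0.266% for Tssk2. On that array Tssk1 alone, at a signal of 55.4, exceeded the array median of 41.5, so the other percentages there compare signals of dim probe sets. In type A the mean was 2.13% of the spermatid mean for Tssk4, 1.28% for Tssk1, 0.959% for Tssk6, 0.642% for Tssk3 and 0.115% for Tssk2. The markers ran from 0.0346% to 1.23% there. Of these kinases only Tssk1 in type A replicate 2 exceeded its array median, at 45.5 against 45.2, so these percentages also compare dim signals. Whether the early Tssk signal came from the named stage or from later cells in the preparation was not tested.

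**Figure D3:**
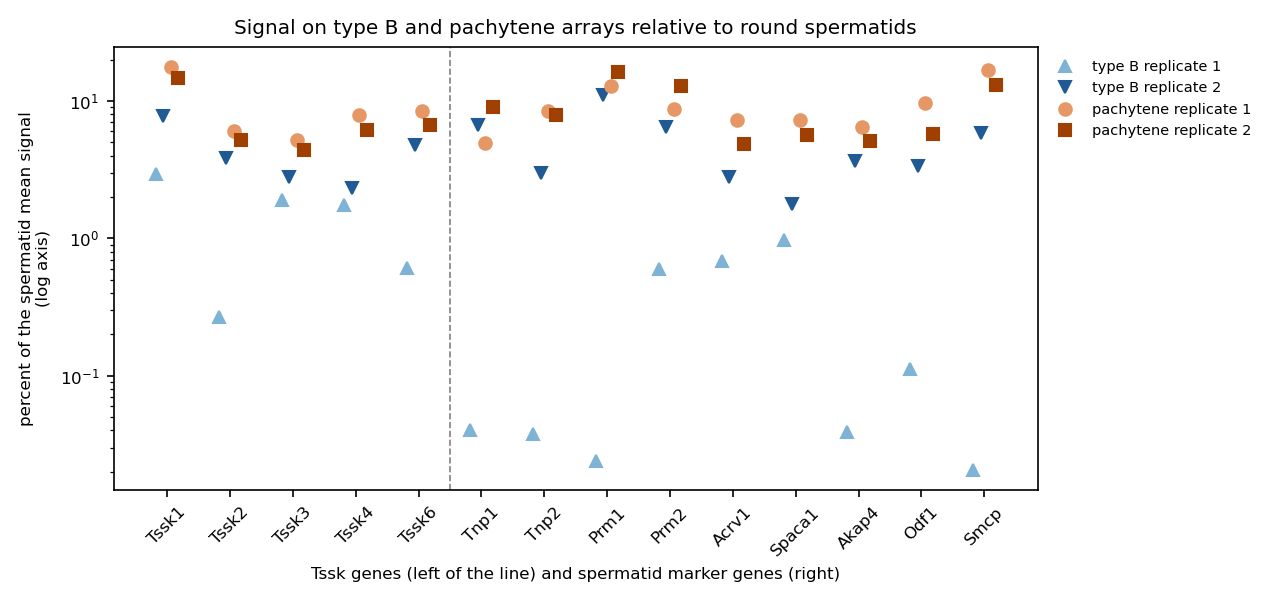
Signal on each type B and pachytene array as a percentage of the spermatid mean of the same probe set (log axis), for the highest probe set of 5 Tssk genes on the left and 9 spermatid marker genes on the right. On the pachytene arrays the group means lie between 4.83% and 16.1% for the Tssk genes and between 5.78% and 14.96% for the markers, and on type B replicate 1 all 9 markers and every Tssk gene but Tssk1 lie below the array median.

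The proteins that work with the TSSKs did not all follow their time course. Tsks, the substrate of TSSK1 and TSSK2, had signals of 185.8 and 189.5 in type A, 203.5 and 224.5 in type B, 132.2 and 91.5 in pachytene cells, and 995.5 and 1132 in spermatids. Its rise came at the spermatid step, at 3.09 ± 0.22 log2 against pachytene cells (limma adjusted p = 1.3e-04) and 2.40 ± 0.22 against type A (8.59e-05). In pachytene cells against type A, Tsks read -0.69 ± 0.22 (0.0296), and 0.20 (0.736) with arrays centred on ribosomal protein probe sets.

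Tsacc, the co-chaperone of TSSK6, had signals of 81.6 and 47.8 in type A, 58.0 and 427.5 in type B, 517.9 and 918.4 in pachytene cells, and 944.3 and 1529 in spermatids. It rose by 3.16 ± 0.74 log2 in pachytene cells against type A (limma adjusted p = 0.00742) and read 0.79 ± 0.74 in spermatids against pachytene cells (0.501), where the stages did not overlap but lay close. Odf2, the fibre protein that TSSK4 phosphorylates, rose by 4.66 ± 0.57 in pachytene cells against type A (3.88e-04) and read 0.91 ± 0.57 at the spermatid step (0.288). Spag16, a protein of the flagellar axoneme that binds TSSK2, rose by 5.79 ± 0.87 (9.34e-04) and then read -0.24 ± 0.87 (0.885). Crem, a transcription factor of spermatid genes, rose by 4.34 ± 0.69 (0.00121) and then read 1.20 ± 0.69 (0.254). Odf2 signals were 2148 and 2224 in pachytene cells and 4342 and 3918 in spermatids, without overlap. Those of Crem were 601.6 and 701.1, then 1346 and 1693. The standard error is shared with type B, whose replicates lay far apart, at 122.8 and 570.3 for Odf2 and 20.2 and 199.5 for Crem. The spermatid values of Crem and Odf2 passed when either type B array was left out (0.0118 and 0.0179). Creb1, the related factor of somatic cells, was lower by a log2 change of -2.48 ± 0.30 in spermatids against type A (2.6e-04).

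Of the 12 genes listed as TSSK partners and substrates, 11 were on the array under 1 gene name and tested. In spermatids against pachytene cells 1 rose and 2 fell, with a median log2 change of 0.031 against -0.094 for all tested probe sets, of which 11.7% were called higher and 15.7% lower. More rose without either type B array, and fewer fell without any one pachytene or spermatid array. The shares of all tested probe sets called moved the same way in those fits. In spermatids against type A 7 rose and 2 fell, with a median of 1.15 against -0.46 for all, of which 21.9% were called higher and 41.6% lower. Cdc37, the kinase co-chaperone of HSP90, was 1 of those 2 at -0.58 ± 0.21 (limma adjusted p = 0.0404), a call lost without type A replicate 2 (0.196) or any pachytene or spermatid array (0.0676 to 0.126), and it read 0.26 with arrays centred on ribosomal protein probe sets.

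Among the nearest relatives of the TSSKs, the kinases related to AMPK, more fell than rose against type A, though not under every scaling. The list of 17 includes Stk11, an activator of many of these kinases. In spermatids against type A, 2 of the 17 rose and 11 fell, with a median log2 change of -1.23 against -0.46 for all tested probe sets, where 21.9% of all were called higher and 41.6% lower. Prkaa1, a catalytic subunit of AMPK, fell by 1.24 ± 0.22 log2 (limma adjusted p = 0.0017), Sik1, a salt-inducible kinase, by 1.72 ± 0.31 (0.00163) and Mark4, a microtubule affinity-regulating kinase, by 2.04 ± 0.28 (4.45e-04). Hunk and Brsk1 were the pair that rose, by 2.16 ± 0.29 (4.53e-04) and 1.90 ± 0.39 (0.00352). Centring the arrays on ribosomal protein probe sets shifted the median of all probe sets by 0.84. In that setting 1 of the 17 fell and 4 rose, where 31.7% of all tested probe sets were called higher and 11.8% lower. Prkaa1 and Sik1 then read -0.39 and -0.88 (limma adjusted p = 0.494 and 0.103). At the spermatid step itself 2 rose and 4 fell, while 11 had no call, and 11.7% of all tested probe sets were called higher and 15.7% lower. Fewer fell without pachytene replicate 1 or spermatid replicate 2, where fewer of all tested probe sets were called lower too.

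Among 12 other kinases of testis and sperm, 6 rose and 3 fell in spermatids against type A, with a median log2 change of 0.50, and 1 rose and 2 fell against pachytene cells, with a median of -0.33. The shares of all tested probe sets called higher and lower were 21.9% and 41.6% against type A, and 11.7% and 15.7% against pachytene cells. Fewer fell against type A without spermatid replicate 2, and against pachytene cells without any one array of these 2 stages. Fewer of all tested probe sets were then called lower as well. Camk4, a calcium/calmodulin-dependent kinase, was the 1 that rose at the spermatid step, with signals of 248.7 and 283.4 in spermatids against 59.0 and 44.2 in pachytene cells, or 2.07 ± 0.32 log2 (limma adjusted p = 0.00246). Stk33 had signals of 1544 and 1354 in spermatids against 1701 and 1816 in pachytene cells, and 32.4 and 3.6 in type A. Its rise lay at the pachytene step, at 5.85 ± 0.78 against type A (5.53e-04), and it read -0.28 ± 0.78 between the later stages (0.846). Nek2, a centrosomal kinase, rose by 1.55 ± 0.29 in spermatids against type A (0.00207) but read -1.05 ± 0.29 against pachytene cells (0.0294). Camkk2, an activator of CAMK4 and AMPK, fell by 2.55 ± 0.25 in spermatids against type A (1.11e-04).

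**Figure D4:**
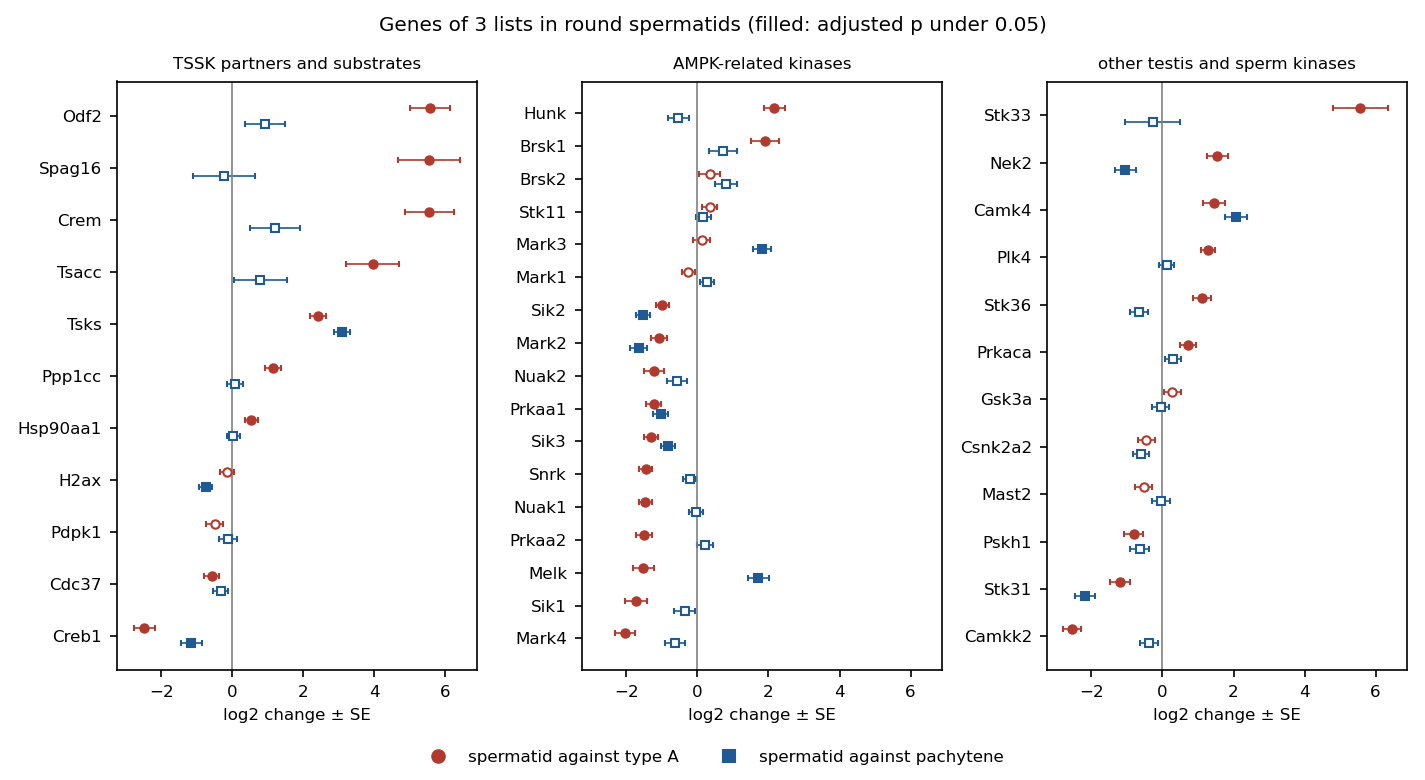
log2 change with its standard error in round spermatids against type A spermatogonia (circles) and against pachytene spermatocytes (squares) for 11 TSSK partners and substrates, 17 kinases listed as AMPK-related and 12 other testis and sperm kinases, filled where the limma adjusted p was under 0.05. Tsks stands at 3.09 and Camk4 at 2.07 against pachytene cells, while Odf2 and Crem, at 0.91 and 1.20, and Spag16 and Stk33, at -0.24 and -0.28, are not filled there.

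Across the 8 arrays, the main probe sets of the 5 detected kinases had similar patterns, with Pearson r of log2 signal from 0.902 for Tssk1 with Tssk4 to 0.992 for Tssk2 with Tssk6. These correlations share arrays and rest on 4 stages with 2 arrays each, so they are given as a description. The genes most like each kinase by the same measure, among tested probe sets of 1 gene, were Tmco2 (r = 0.999), Nt5c1b (0.999) and Spz1 (0.999) for Tssk2, and Cabs1 (0.999), Theg (0.998) and Znrf4 (0.998) for Tssk6. For Tssk3 they were Dcst1 (0.999), 4930578I06Rik (0.998) and 1700113H08Rik (0.997), and for Tssk4 they were Prss52 (0.999), Gm732 (0.999) and Tmem237 (0.999). Tssk1 had fewer close matches, with Scgb1b2 (0.993), Tpi1 (0.988) and Mlf1 (0.987) nearest. Scgb1b2 was dim, with signals of 1.5 to 38.2, and passed the filter on the spermatid arrays only. Over r = 0.99 there was 1 other probe set for Tssk1, against 83 for Tssk2, 107 for Tssk3, 157 for Tssk4 and 142 for Tssk6. Tmco2, the gene nearest to Tssk2, had signals of 4.5 and 9.6 in type A, 12.8 and 115.7 in type B, 180.1 and 140.9 in pachytene cells, and 2488 and 3071 in spermatids.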

How the data were processed

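RNA of 4 mouse germ cell stages was measured on 8 arrays, 2 per stage. The authors deposited 1 linear intensity per probe set and array, and the submitters' processing notes name MAS5; its version is not given in the sources used, and detection calls were not used. The mean deposited intensity, trimmed by 2% at each end, was 125 on each array.

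Of 45101 probe sets, 64 were controls, 34945 listed 1 gene, 932 several and 9160 none. No probe set that listed several genes named a Tssk gene. Names follow the platform annotation, updated through Entrez identifiers with a RefSeq table of GRCm38.p6 (34741 matched). Probe sets above their array median on at least 2 of 8 arrays were analysed as log2(signal + 16) with limma 3.58.1 in R 4.3.3 (lmFit, 1 mean per stage, then eBayes), two-sided, Benjamini-Hochberg adjusted within each of 5 comparisons. Residual degrees of freedom were 4, with 3.91 added by the prior. The steps were tested on simulated data. Arrays limit the precision of every value by their small number.

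All Tssk probe sets are described. Other genes are represented by their highest probe set, and those named are the first of each list and those with the largest called changes between spermatids and type A. For each kinase the 3 genes with the highest r are named. Genes named outside these rules, such as Cdc37, were chosen after their values were seen. The members, lists and tests were chosen with earlier results of these data known. Alternatives were other pseudocounts, filters, scalings, a trend, 1 probe set per gene, a replicate block and left-out arrays. Promoter windows are from RefSeq, GRCm38.p6.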

Additional observations from a re-analysis of the deposited data

How the results depend on the processing

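The number of Tssk probe sets called was within 1.5 times the reported one under every alternative for spermatids against pachytene cells (5 to 6), spermatids against type A (5 to 7) and pachytene cells against type A (5 to 6). With 1 probe set per gene 5 Tssk probe sets were tested. For pachytene cells against type B, where 2 were called, 4 were called with a pseudocount of 64 or an eBayes trend, 5 with quantile normalization, centring on the 75th percentile or 1 probe set per gene, 7 with centring on ribosomal protein probe sets, and 1 to 5 with an array left out. For type B against type A the count was 0 to 1 with an array left out, the 1 being Tssk2 without type B replicate 1. The replicate block gave 3 for pachytene cells against type B and the same counts elsewhere. The replicate differences of the stages correlated at -0.27 to 0.35 across probe sets, which does not settle whether the replicate numbers pair the arrays.

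Ribosomal centring moved the median of all probe sets by -0.43 for type B against type A, 0.89 and 1.31 for pachytene cells against type A and type B, and 0.84 for spermatids against type A. It gave 56.1% of all probe sets higher and 4.7% lower for pachytene cells against type B, where 20.3% and 29.4% were called as deposited, and 31.7% and 11.8% for spermatids against type A, against 21.9% and 41.6%. With a pseudocount of 4, Tssk1 in spermatids against pachytene cells had an adjusted p of 0.0693. With a pseudocount of 64, Tssk3 1432397_at in pachytene cells against type A had 0.0515.

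Among the Tssk results, signs turned only for changes that were not called. For type B against type A, Tssk4 1432101_a_at, at -0.041, read 0.063 with quantile normalization, 0.019 with centring on the 75th percentile, and -0.22 to 0.13 with an array left out. With an array left out, Tssk6 read -0.22 to 1.38 there and Tssk4 1438486_at -0.49 to 0.048. For pachytene cells against type A, Tssk4 1438486_at, at -0.19, read 0.19 and 0.70 with centring on the 75th percentile and on ribosomal probe sets, and -0.46 to 0.076 with an array left out. For pachytene cells against type B it read -0.044 to 0.10, and Tssk3 1432397_at -0.11 to 0.21, with an array left out. The causes were not tested.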
